A study of Mus musculus with 2 samples.

Results

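Chromatin accessibility was measured at 39 genes of the actin cytoskeleton and of focal adhesions in nuclei of primary mouse mammary gland organoids, out of 21938 protein-coding genes of the annotation. The genes were taken from a list of names, which was drawn up with earlier results of these data known. They cover the cytoplasmic actins (Actb, Actg1), the tropomyosins that coat the filament (Tpm1, Tpm2, Tpm3, Tpm4), proteins that crosslink filaments or tie them to the adhesion sites (Actn1, Actn4, Flna, Vcl, Tln1, Zyx, Vasp, Enah, Lima1, Pdlim5, Pdlim7, Fhl2), proteins that build, cap or sever filaments (Diaph1, Diaph2, Diaph3, Pfn1, Arpc2, Capzb, Cfl1), the kinases Limk1, Limk2, Rock1 and Rock2, nonmuscle myosin II (Myh9, Myh10, Myl6, Myl12a, Myl12b) and the proteins that link filaments to the membrane (Ezr, Msn, Rdx). The label of the list does not describe 2 of them. Tuba1c encodes an alpha-tubulin, and Srf encodes the transcription factor SRF.

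Actin filaments anchored at focal adhesions carry tension between a cell and its matrix, and nonmuscle myosin II, activated downstream of RhoA and ROCK, generates that tension. SRF binds the CArG box, a short A/T-rich element flanked by CC and GG, and many genes of the actin cytoskeleton are among its targets. Its cofactors of the MRTF family are held back by monomeric actin, so filament assembly and the transcription of these genes are coupled. In the mammary gland the basal myoepithelial cells are contractile, while luminal cells line the duct.

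Both groups came from organoids of C57BL/6J mice of the genotype shTRPS1.34 ki/+; CAG-rtTA3 tg/+, in which a tetracycline-responsive turboGFP-shRNA cassette against Trps1 sits at Col1a1 and the transactivator rtTA3 is driven everywhere by the CAG promoter. The treatment lasted 7 days, with 0.1 µg/ml doxycycline (DOX) or ethanol (EtOH), so the groups share both transgenes and the control carries the shRNA cassette without its inducer. Cells of several mice were pooled and 1 library was made per group, so there is no replicate check, no test was run, and every interval below covers counting error only. The CAG promoter does not limit the shRNA to epithelial cells.

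The DOX library held 3071 nuclei and the EtOH library 3104 nuclei, with a median of 75195 and 66701 counts per nucleus, and 23 barcodes occurred in both. Of 275294 merged peak regions, 174940 had a peak in both libraries (shared regions), and counts were scaled to each library's total in them, in the usual CPM unit. Nuclei open at the immune genes Ptprc, Csf1r or C1qb beyond one cut of their summed rate (immune-open nuclei) made up 43.3% of DOX (Clopper-Pearson interval 41.5 to 45.1%) and 13.4% of EtOH (12.3 to 14.7%), with 336 and 456 nuclei within 0.5 log2 units of the cut. All 10 immune markers of a list without those 3 genes were higher in immune-open nuclei in each library, with summed levels of 1022 and 846 CPM in DOX and EtOH against 397 and 390 CPM in the remaining nuclei, and none of the 10 was at 0 there. All 5 epithelial markers were lower in immune-open nuclei. In the remaining nuclei the 8 basal markers summed to 423 CPM in DOX and 358 CPM in EtOH, with 8 of 8 higher in DOX, and the 8 luminal progenitor markers to 196 and 211 CPM. The part of these makeup differences in the ratios below was not tested beyond the counts given without immune-open nuclei and within clusters. The Trps1 promoter, which an shRNA does not target, was at 40.4 CPM in DOX and 25.3 CPM in EtOH, and at 29.2 and 22.6 CPM without immune-open nuclei, so it does not check the knockdown.

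The 39 genes held 371 shared regions, of which 96 lay within 1 kb of a transcription start site (TSS) of their gene (promoter) and 275 in the rest of the gene body, and no region was counted for more than 1 of the genes. Pdlim5 (29 regions), Lima1 (24) and Capzb (23) had the most. Actb, Actg1, Zyx, Cfl1 and Srf had no shared region beyond the promoter, which leaves 34 gene bodies. A further 77 regions had a peak in DOX alone and 99 in EtOH alone, 14.1% and 18.1% of the 547 regions at these genes, against 17.0% and 19.4% of all merged regions. They were not compared, because a library without a peak has no count there.

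The 10-letter CArG box was searched in the reference sequence because SRF and its targets are among the genes. It was found in the central 300 bp of 29 of the 371 regions (7.82%), at 19 of the 39 genes, against 1.58% of all shared regions. Near a TSS the shares were 13.5% of 104 regions against 1.28% of all such regions, and away from a TSS 5.62% of 267 regions against 1.65%. Here a region near a TSS lies within 1 kb of the TSS of any gene. Among RefSeq promoters (250 bases before to 50 after the start), 36 of the 39 genes were matched and 6 of them (Actg1, Fhl2, Lima1, Myl6, Srf, Vcl) held a box, against 1.81% of the 27025 genes in that set. GGAATG, the core read by TEAD factors, was in 20.2% of the genes' windows and 20.2% of all windows, TGANTCA (AP-1) in 22.4% and 20.9%, and GATAA, the core read by GATA factors, in 29.1% and 28.3%. Both strands were searched. A matching string is a description of the sequence and shows no binding.

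The promoters of Srf and of the 5 other genes are shown because they give the box in its place. They are RefSeq sequences of GRCm38.p6, read 5′ to 3′ on the strand of the gene from 250 bases before the start to 50 after it, with the CArG boxes in capitals.
Srf, chr17:46556113-46556412, minus strand: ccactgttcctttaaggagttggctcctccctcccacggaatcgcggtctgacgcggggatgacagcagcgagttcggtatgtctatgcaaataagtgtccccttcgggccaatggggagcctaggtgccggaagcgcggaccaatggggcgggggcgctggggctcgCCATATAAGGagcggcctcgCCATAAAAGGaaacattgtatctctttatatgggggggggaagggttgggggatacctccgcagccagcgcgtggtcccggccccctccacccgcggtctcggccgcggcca
Actg1, chr11:120348446-120348745, minus strand: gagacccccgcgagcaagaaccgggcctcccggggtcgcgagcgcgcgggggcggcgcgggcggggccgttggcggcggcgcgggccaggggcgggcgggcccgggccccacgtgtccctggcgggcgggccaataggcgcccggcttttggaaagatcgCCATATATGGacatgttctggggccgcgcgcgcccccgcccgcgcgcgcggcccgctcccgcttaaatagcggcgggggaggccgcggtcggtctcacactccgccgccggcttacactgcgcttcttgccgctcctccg
Vcl, chr14:20929148-20929447, plus strand: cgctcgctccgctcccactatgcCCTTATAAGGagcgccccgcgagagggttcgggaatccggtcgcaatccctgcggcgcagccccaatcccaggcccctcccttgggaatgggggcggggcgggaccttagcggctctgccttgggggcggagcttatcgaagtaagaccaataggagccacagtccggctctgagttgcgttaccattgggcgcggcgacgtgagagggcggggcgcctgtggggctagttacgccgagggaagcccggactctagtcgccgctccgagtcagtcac
Fhl2, chr1:43163912-43164211, minus strand: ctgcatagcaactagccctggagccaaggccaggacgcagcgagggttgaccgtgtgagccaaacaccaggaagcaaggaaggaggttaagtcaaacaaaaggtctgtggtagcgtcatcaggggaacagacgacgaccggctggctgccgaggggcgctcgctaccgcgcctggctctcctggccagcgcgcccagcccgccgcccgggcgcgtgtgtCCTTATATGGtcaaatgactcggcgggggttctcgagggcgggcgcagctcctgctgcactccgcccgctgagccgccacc
Lima1, chr15:99820100-99820399, minus strand: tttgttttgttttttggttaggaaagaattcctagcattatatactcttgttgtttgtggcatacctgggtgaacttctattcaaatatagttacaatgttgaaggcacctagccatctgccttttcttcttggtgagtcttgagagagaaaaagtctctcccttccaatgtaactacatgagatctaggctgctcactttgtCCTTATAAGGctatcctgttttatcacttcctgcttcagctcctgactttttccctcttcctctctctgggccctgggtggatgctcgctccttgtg
Myl6, chr10:128492960-128493259, minus strand: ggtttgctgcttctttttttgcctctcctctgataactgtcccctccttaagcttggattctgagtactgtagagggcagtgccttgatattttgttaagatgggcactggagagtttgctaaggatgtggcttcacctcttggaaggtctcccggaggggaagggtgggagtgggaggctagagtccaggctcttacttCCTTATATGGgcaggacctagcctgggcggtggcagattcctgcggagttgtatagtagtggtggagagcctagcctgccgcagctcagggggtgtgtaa
Srf itself held 2 boxes, and those of the other promoters began at -90 (Actg1), -227 (Vcl), -31 (Fhl2), -47 (Lima1) and -50 (Myl6) from the start. A second RefSeq promoter of Fhl2, at chr1:43196712-43197011, held a box at -96, and a second one of Myl6 held none.

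The promoters of the 39 genes were open in both libraries, with a median of 55.8 CPM in DOX and 49.9 CPM in EtOH against 27.3 and 25.7 CPM over all promoters with at least 100 counts. The lowest were Enah at 8.91 CPM in DOX and Msn at 10.5 CPM in EtOH. The highest were Limk1 at 114 CPM in DOX and Srf at 109 CPM in EtOH. A count at the promoter was seen in 90.7% of DOX nuclei for Limk1 and in 24.9% for Enah, the extremes of the list. No shared region covered the outer start of Enah, so its level and share come from regions beside that start or inside the gene.

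Over all nuclei, 3 of the 39 promoters were at least 1.5-fold higher in DOX and 0 were at least 1.5-fold lower, where 6.23% and 6.01% of the 16361 promoters measured were. Diaph2, which encodes a formin that elongates filaments, was at 25.0 CPM in DOX and 14.7 CPM in EtOH, a log2 ratio of 0.76 (95% counting interval 0.67 to 0.86). Pfn1, the profilin that feeds actin to formins, was at 53.7 and 34.2 CPM (0.65, 0.59 to 0.71). Vasp, which protects growing filament ends at adhesions, was at 74.4 and 48.5 CPM (0.62, 0.56 to 0.67). The lowest was Enah, a relative of Vasp, at 8.91 and 12.6 CPM (-0.50, -0.62 to -0.37), followed by Tpm2 at 28.7 and 36.0 CPM (-0.33). No shared region covered the outer start of Enah at chr1:182019990. The Enah value sums 4 regions beside that start or further inside the gene, with ratios of 0.15, 0.735, -0.52 and -1.39. The median log2 ratio of the 39 was 0.13, and that of all promoters 0.09. With each nucleus counted once per region, Vasp (0.46) and Pfn1 (0.42) were no longer 1.5-fold higher. With scaling to counts near TSSs they were at 0.54 and 0.57, also below 1.5-fold, and Pfn1 was at 0.46 with a 500-bp promoter window. With a 2-kb promoter window Enah was at 0.02.

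In sums over all nuclei, a different share of a cell type and a different accessibility per nucleus cannot be told apart. Without the immune-open nuclei, 0 of the 39 promoters were 1.5-fold apart in either direction, where 2.89% of all promoters were higher and 2.43% lower. The median ratio was 0.03, and the whole list lay between -0.15 (Tpm2) and 0.33 (Pfn1 and Fhl2). Vasp was then at 44.0 CPM in DOX and 43.9 CPM in EtOH (0.01, -0.07 to 0.08), Zyx at 65.2 and 63.8 CPM, and Enah at 12.5 and 13.4 CPM (-0.10, -0.23 to 0.03). Diaph2 at 16.2 and 13.0 CPM (0.32, 0.20 to 0.44) and Pfn1 at 40.7 and 32.4 CPM (0.33, 0.25 to 0.41) kept part of their difference. Actb at 80.7 and 72.6 CPM (0.15, 0.10 to 0.21) and Lima1, which encodes an actin-bundling LIM protein, at 58.5 and 48.5 CPM (0.27, 0.21 to 0.33) also had intervals above 0. Srf, the gene of the transcription factor, was at 113 CPM in DOX and 110 CPM in EtOH (0.03, -0.01 to 0.08).

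Fhl2 went the other way. It encodes a LIM-only protein that binds integrins and transcription factors, SRF among them. Its promoter was at 16.01 CPM in DOX and 18.77 CPM in EtOH over all nuclei (-0.23, -0.33 to -0.13), but at 25.2 and 20.1 CPM without immune-open nuclei (0.33, 0.23 to 0.42). Its gene body moved from 41.4 and 43.0 CPM (-0.05, -0.12 to 0.01) to 61.8 and 44.9 CPM (0.46, 0.40 to 0.52).

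**Figure D1:**
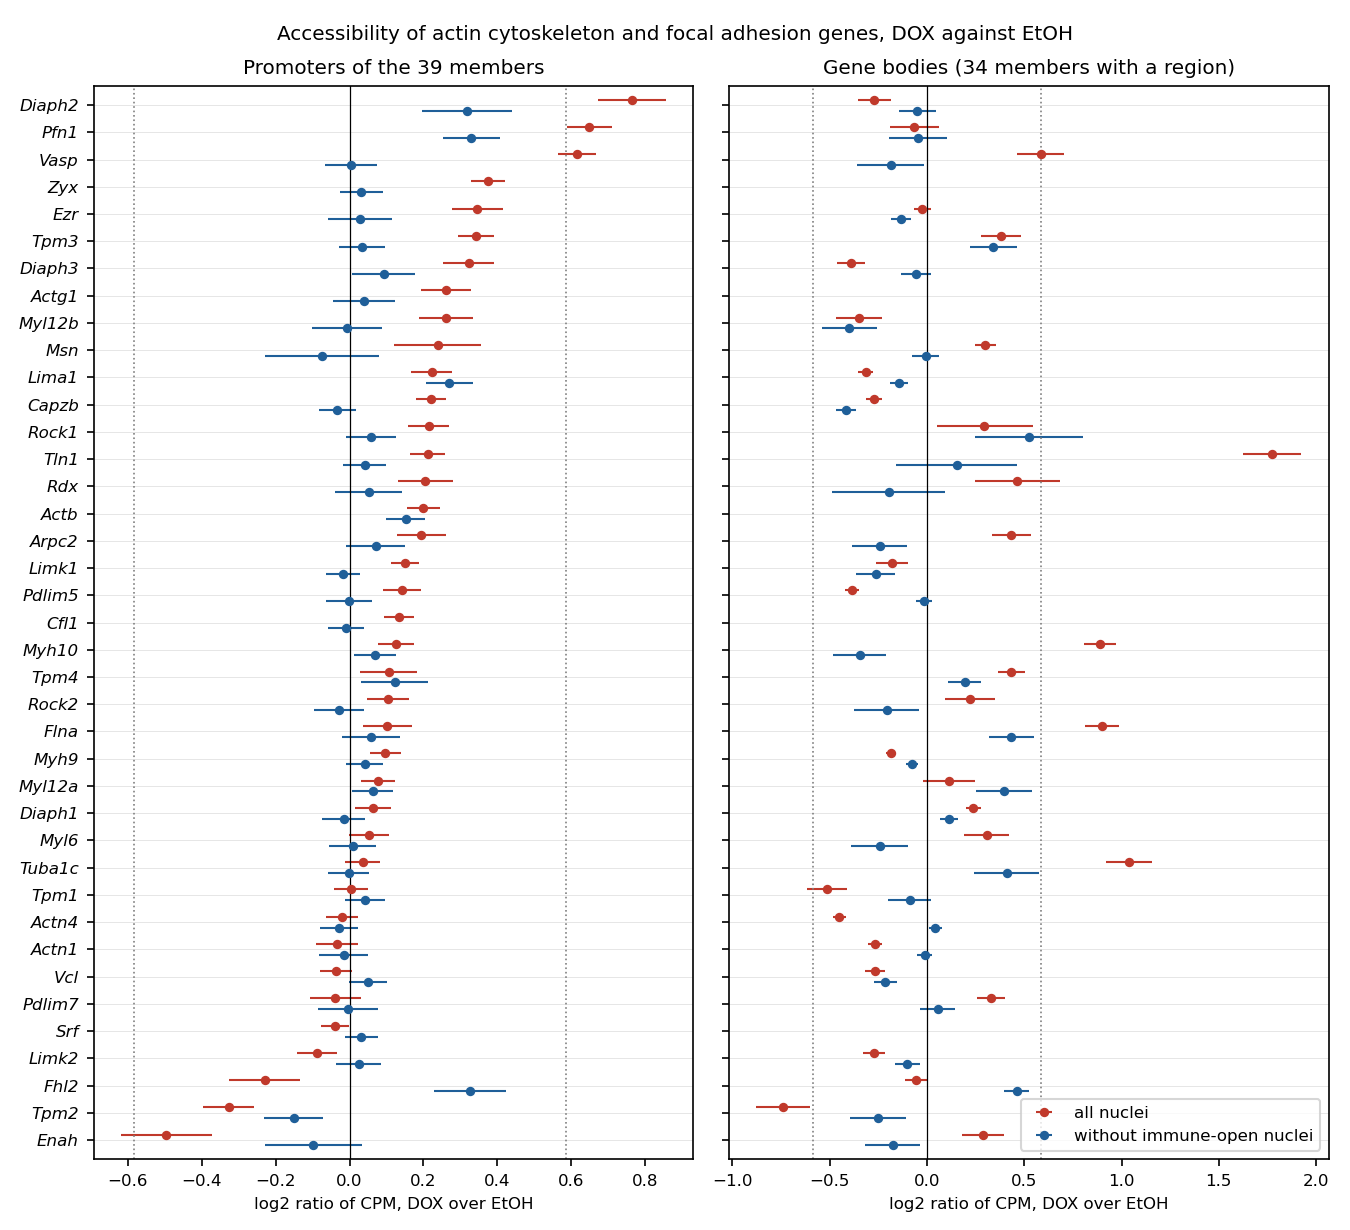
Log2 ratio of CPM in DOX over EtOH for each promoter (left) and gene body (right), with 95% counting intervals, over all nuclei (red) and without immune-open nuclei (blue). Dotted lines mark 1.5-fold. Only Diaph2, Pfn1 and Vasp pass the line on the left in red, and no promoter or gene body passes it in blue.

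Gene bodies varied more than promoters. Over all nuclei 4 of the 34 were at least 1.5-fold higher in DOX and 1 was lower, where 14.3% and 16.5% of the 12704 gene bodies measured were. Tln1, the talin that links integrins to actin, was at 15.9 CPM in DOX and 4.66 CPM in EtOH (1.77, 1.62 to 1.92). Tuba1c was at 17.5 and 8.53 CPM (1.04, 0.92 to 1.16), Flna, a filament crosslinker, at 28.5 and 15.3 CPM (0.90, 0.81 to 0.99), and Myh10, a heavy chain of nonmuscle myosin II, at 32.1 and 17.3 CPM (0.89, 0.80 to 0.97). Tpm2, the beta-tropomyosin, was at 6.49 and 10.8 CPM (-0.74, -0.88 to -0.60), and at -0.55 with each nucleus counted once. The bodies of Tln1 and Tuba1c held 1 shared region each, those of Flna and Tpm2 held 2 each, and that of Myh10 held 9.

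Without immune-open nuclei 0 of the 34 gene bodies were 1.5-fold apart, where 6.02% of all gene bodies were higher and 10.0% lower. Tln1 was at 2.45 CPM in DOX and 2.20 CPM in EtOH (0.15, -0.16 to 0.46). Flna at 18.8 and 13.9 CPM (0.43, 0.32 to 0.55) and Tuba1c at 9.01 and 6.78 CPM (0.41, 0.24 to 0.58) were closer together, while Myh10 lay on the other side of 0, at 10.8 and 13.7 CPM (-0.35, -0.48 to -0.21). Capzb, a subunit of the capping protein, had the lowest value at 71.1 and 95.01 CPM (-0.42, -0.47 to -0.37), and Rock1 the highest at 3.46 and 2.40 CPM (0.53, 0.25 to 0.80), from 441 and 432 counts, and with a 2-kb promoter window Rock1 was at -0.31. The medians were 0.04 over all nuclei and -0.07 without immune-open nuclei, against -0.09 and -0.07 for all gene bodies.

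The 3 promoters and 5 gene bodies that were 1.5-fold apart over all nuclei differed in the same direction between immune-open and other nuclei of each library. They were picked on sums of the same counts, in which immune-open nuclei made up 43.3% of DOX and 13.4% of EtOH. The shared direction is therefore no separate check, and its share over all genes was not counted. At promoters, 11 of the 39 were at least 1.5-fold higher in immune-open than in other nuclei of DOX and 2 were lower, where 17.6% and 22.8% of all promoters were. In EtOH 7 were higher and 2 lower, where 11.7% and 19.5% of all were. Vasp was at 120 CPM in immune-open and 44.0 CPM in other nuclei of DOX, and at 88.5 and 43.9 CPM in EtOH. Diaph2 was at 38.1 and 16.2 CPM in DOX and at 29.4 and 13.0 CPM in EtOH, and Zyx, a focal adhesion LIM protein, at 124 and 65.2 CPM and at 109 and 63.8 CPM. Fhl2 was at 2.19 and 25.2 CPM in DOX and at 7.18 and 20.1 CPM in EtOH, and Enah at 3.57 and 12.5 CPM and at 5.85 and 13.4 CPM.

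At gene bodies, 13 of the 34 were higher and 11 lower in immune-open nuclei of DOX (26.9% and 42.8% of all gene bodies), and 8 and 9 in EtOH (20.2% and 36.3%). The Tln1 body was at 36.1 CPM in immune-open and 2.45 CPM in other nuclei of DOX, and at 25.7 and 2.20 CPM in EtOH. The Myh10 body was at 64.0 and 10.8 CPM in DOX and at 48.3 and 13.7 CPM in EtOH. The body of Actn4, an alpha-actinin that crosslinks filaments, was at 31.8 and 196 CPM in DOX and at 73.5 and 190 CPM in EtOH. The gap was narrower in EtOH for each of these 3. Immune-open nuclei of EtOH had a median of 52493 counts against 74822 in DOX. The immune-like cluster described next held 275 nuclei of EtOH, where 417 were immune-open, and 1270 of DOX, where 1330 were. A larger share of the immune-open nuclei of EtOH therefore lay outside it. The part of either in the gap was not tested.

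Clustering on the shared regions of all genes gave 7 clusters. Cluster 2 (1270 DOX and 275 EtOH nuclei) was immune-like, with C1qb and Tyrobp among its 10 leading genes. Cluster 1 (101 and 1683 nuclei) was luminal progenitor-like, clusters 4 (99 and 480) and 5 (5 and 494) were highest for the hormone-sensing luminal list, and cluster 6 (68 and 120) was basal-like. Cluster 3 (1487 and 31 nuclei) had raised epithelial and basal lists and was left unnamed, and cluster 7 (41 and 21) had a median of 8796 counts and was not used. DOX and EtOH were compared within clusters 1, 2, 4 and 6, which held at least 50 nuclei of each library. The clustering used all genes, so differences between clusters are a description.

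The promoter ratios within clusters are a description too, because the clusters were built from shared regions that include those of the genes. Nuclei in 1 cluster are alike by construction, so ratios near 0 there are no separate check. Cluster 3, with 1487 DOX and 31 EtOH nuclei, could not be compared. In immune-like cluster 2 the ratios of 38 promoters with at least 100 counts ran from -0.43 (Msn) to 0.34 (Pfn1), with a median of -0.03 against -0.04 for all genes. The 39 promoters ran from -0.50 (Enah) to 0.54 (Pfn1) in cluster 1, from -0.35 (Tpm2) to 0.56 (Enah) in cluster 4, and from -0.45 (Fhl2) to 0.44 (Diaph2) in cluster 6, with medians of 0.08, 0.08 and -0.03 against 0.00, 0.07 and 0.02 for all genes. Pfn1 was higher in DOX in each, at 46.7 and 32.1 CPM in cluster 1, 74.5 and 58.8 CPM in cluster 2, 36.3 and 31.4 CPM in cluster 4 and 38.4 and 28.6 CPM in cluster 6. These Pfn1 levels are given without intervals, clusters 1, 4 and 6 held 101, 99 and 68 DOX nuclei, and the shared direction was not tested. Vasp was at 123 CPM in DOX and 114 CPM in EtOH in cluster 2, Tln1 at 92.9 and 95.5 CPM, and the Tln1 body at 37.7 and 37.8 CPM.

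Across clusters, the Vasp promoter was at 122 CPM in cluster 2 over both libraries and between 39.8 and 47.2 CPM in clusters 1, 3, 4, 5 and 6. The Zyx promoter was at 127 CPM in cluster 2, between 59.7 and 67.8 CPM in clusters 1, 3, 4 and 5, and at 32.0 CPM in basal-like cluster 6. The Fhl2 promoter was at 0.825 CPM in DOX and 0.510 CPM in EtOH in cluster 2 and between 15.7 and 26.5 CPM in clusters 1, 3, 4, 5 and 6. The Actn4 body was at 26.6 CPM in cluster 2 and at 221 CPM in cluster 1. In basal-like cluster 6 the promoter of Tpm2 was at 54.4 CPM against 29.4 CPM in cluster 1, the Fhl2 body at 89.1 against 29.2 CPM, and the body of Limk2, a kinase that inactivates cofilin, at 96.3 against 54.1 CPM. Cluster 1 is only 1 of the other clusters. Over all nuclei that were not immune-open, the Tpm2 promoter was at 33.1 CPM in DOX and 36.8 CPM in EtOH. The Fhl2 body was there at 61.8 and 44.9 CPM, and the Limk2 body at 52.7 and 56.6 CPM.

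**Figure D2:**
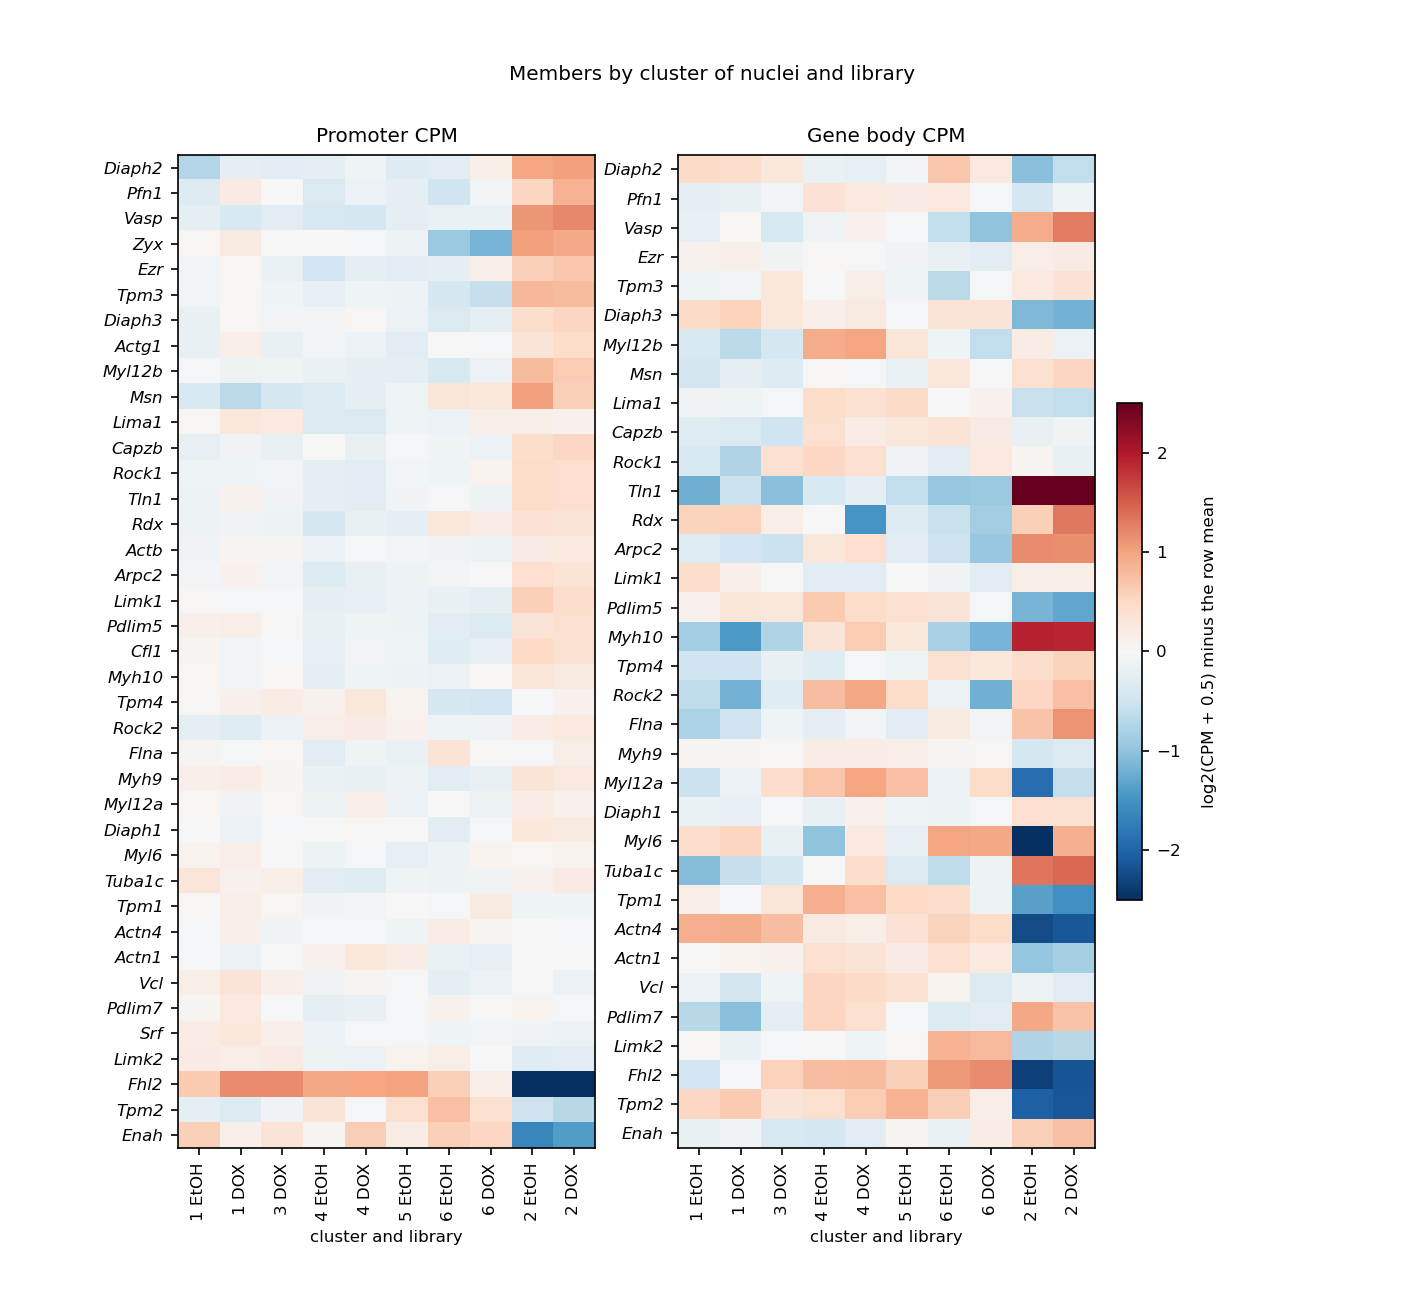
Promoter (left) and gene-body (right) accessibility of each gene by cluster and library, as log2(CPM + 0.5) minus the mean of the row, for clusters with at least 50 nuclei of a library. Cluster 2 is immune-like and cluster 6 basal-like. Tln1 and Myh10 bodies are red and Fhl2, Actn4 and Tpm2 bodies blue in both libraries of cluster 2, and the Myl6 body is at 19.0 CPM in DOX and 1.17 CPM in EtOH there.

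Among the 371 single regions, 47 were at least 2-fold higher in DOX over all nuclei and 32 lower, where 13.0% and 13.4% of all shared regions were. Without immune-open nuclei 12 were higher and 19 lower of 367, where 5.68% and 8.17% of all were. None of the 29 regions with a CArG box was among either set, and their ratios lay between -0.34 and 0.60 without immune-open nuclei, with a median of 0.07. Of all 2759 shared regions with a box, 191 were 2-fold higher and 191 lower without immune-open nuclei. With only 29 regions, 0 is not far from that share.

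The highest region in both sets of nuclei lay in an intron of Fhl2, at chr1:43173390-43174336 of mm10. It was at 10.2 CPM in DOX and 2.05 CPM in EtOH over all nuclei, a log2 ratio of 2.32 (2.10 to 2.54), and its ratio was 2.91 without immune-open nuclei. In basal-like cluster 6 it was at 34.6 CPM in DOX and 17.7 CPM in EtOH (0.97, 0.53 to 1.41), and in cluster 4 at 5.05 and 1.57 CPM (1.68, 0.77 to 2.58). In cluster 1 it was at 2.64 CPM in DOX, from 10 counts, and 1.03 CPM in EtOH, with a ratio of 1.36 (-0.31 to 2.68). Cluster 3, nearly all DOX, was at 16.9 CPM, and cluster 5, nearly all EtOH, at 2.07 CPM. In immune-like cluster 2 both libraries were low, at 0.303 and 0.291 CPM. A count was seen in 70.6% of 68 DOX and 43.3% of 120 EtOH nuclei of cluster 6.

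The central 300 bp of this region are given because it carries the largest difference in these 2 sets of nuclei. None of the 4 strings searched was found in them.
Fhl2 intron region, chr1:43173713-43174012, plus strand: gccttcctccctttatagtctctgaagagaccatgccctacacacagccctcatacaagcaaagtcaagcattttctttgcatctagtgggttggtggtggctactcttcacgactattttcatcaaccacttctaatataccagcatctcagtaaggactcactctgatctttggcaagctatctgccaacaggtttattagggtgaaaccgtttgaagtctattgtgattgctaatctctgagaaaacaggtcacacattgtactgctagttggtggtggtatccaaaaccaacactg

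Of the 11 shared regions of Fhl2, 3 were at least 2-fold higher without immune-open nuclei (2.91, 1.14 and 1.06) and 1 was lower (-1.16). The Fhl2 promoter region with a CArG box, printed above, had a ratio of 0.33 (0.23 to 0.42). The 2 smaller ones, chr1:43141311-43142282 and chr1:43145177-43146139, were at 4.32 and 3.65 CPM in cluster 3 and at 2.07 and 0.425 CPM in EtOH nuclei of cluster 1. The second of them was at 6.07 CPM in DOX and 4.60 CPM in EtOH nuclei of cluster 4.

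The 5 lowest regions over all nuclei lay in Pdlim5, Limk1, Capzb and Fhl2. The lowest, chr3:142300277-142301162 in an intron of Pdlim5, held 95 counts in DOX and 385 in EtOH (-2.101, and -1.62 without immune-open nuclei). The Fhl2 region among them, chr1:43153312-43154154, had a ratio of -1.67 (-1.16 without immune-open nuclei). The region chr3:142348600-142349531 in an intron of Pdlim5, which encodes a PDZ and LIM protein of stress fibres, held 190 counts in DOX and 768 in EtOH (-2.10), and its ratio was -1.82 without immune-open nuclei. It was open in hormone-sensing-like clusters 4 and 5, at 10.2 CPM in EtOH and 7.46 CPM in DOX nuclei of cluster 4 and 7.78 CPM in EtOH nuclei of cluster 5, and at or below 2.37 CPM in clusters 1, 2, 3 and 6. Within cluster 4 its ratio was -0.46 (-1.10 to 0.09). The region chr5:134671244-134672134 in an intron of Limk1, a kinase that inactivates cofilin, held 275 and 1066 counts (-2.04), and was at 8.90 CPM in EtOH and 5.80 CPM in DOX nuclei of cluster 1 (-0.62, -1.63 to 0.24) against 1.82 CPM in cluster 3. Clusters 1 and 4 held few DOX nuclei, and within them these intervals included 0.

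The central 300 bp of the Pdlim5 and Limk1 regions are given because they are among the lowest on the list, with matches to the strings named above, on either strand, in capitals.
Pdlim5 intron region, chr3:142348916-142349215, plus strand: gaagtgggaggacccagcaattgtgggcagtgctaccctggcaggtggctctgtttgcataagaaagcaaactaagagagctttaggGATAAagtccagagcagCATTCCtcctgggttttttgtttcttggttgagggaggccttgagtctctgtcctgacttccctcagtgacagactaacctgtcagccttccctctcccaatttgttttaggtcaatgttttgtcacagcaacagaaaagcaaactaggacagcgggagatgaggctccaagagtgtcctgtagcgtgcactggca
Limk1 intron region, chr5:134671539-134671838, plus strand: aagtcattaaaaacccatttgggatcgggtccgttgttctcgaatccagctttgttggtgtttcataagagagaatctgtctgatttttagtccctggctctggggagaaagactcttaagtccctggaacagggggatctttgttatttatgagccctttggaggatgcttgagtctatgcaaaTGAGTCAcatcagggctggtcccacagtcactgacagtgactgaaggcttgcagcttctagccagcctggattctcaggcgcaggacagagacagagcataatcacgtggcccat

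Other regions 2-fold higher without immune-open nuclei included chr14:86825441-86826323 in an intron of Diaph3 (2.35, from 445 DOX and 123 EtOH counts) and chr13:55494956-55495891 at the 3′ end of Pdlim7 (2.08, from 1392 and 463 counts). The latter has 97 of its 936 bases inside Pdlim7. It was at 11.3 CPM in cluster 3, at 10.0 CPM in DOX and 2.80 CPM in EtOH nuclei of cluster 6 (1.84, 0.85 to 2.91), and at 10.2 and 5.02 CPM in cluster 4 (1.03, 0.43 to 1.57). A region of Rock1 had a ratio of 2.05 from 241 and 82 counts, and 2.08 CPM in cluster 3. Lower regions included chr4:139261421-139262335 of Capzb (-1.53), which was at 10.2 CPM in DOX and 14.97 CPM in EtOH nuclei of cluster 4 (-0.55, -1.08 to -0.08) and at most 2.80 CPM in clusters 1, 2, 3 and 6, and chr14:86864890-86866087 of Diaph3 (-1.91, from 32 and 170 counts).

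**Figure D3:**
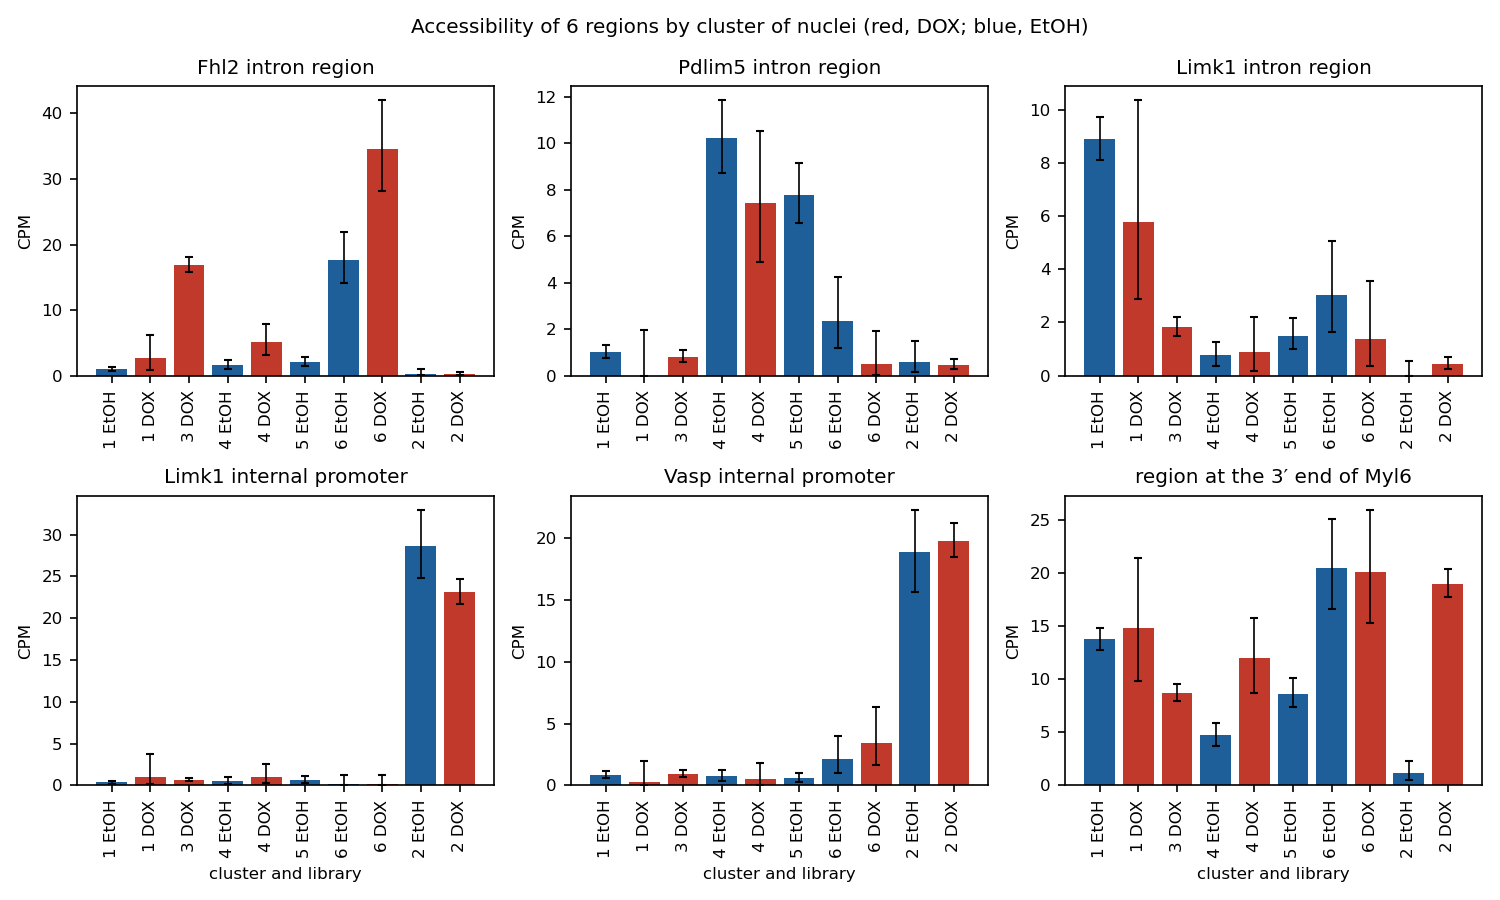
CPM of 6 regions by cluster and library (red, DOX, blue, EtOH), with Poisson 95% intervals. The Fhl2 intron region reaches 34.6 CPM in DOX nuclei of cluster 6, the Limk1 and Vasp internal promoters exceed 18 CPM in cluster 2 alone, and the region at the 3′ end of Myl6 is at 19.0 CPM in DOX and 1.17 CPM in EtOH nuclei of cluster 2.

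The next highest regions over all nuclei were open in the immune-like cluster. The region chr11:68777654-68778664 of Myh10 (2.19) was at 8.76 CPM in DOX and 8.74 CPM in EtOH nuclei of cluster 2 (0.00, -0.40 to 0.42) and at most 0.692 CPM in clusters 1, 3, 4, 5 and 6. The region chrX:96130118-96131000 of Msn, the gene of moesin (2.12), was at 28.9 and 22.2 CPM in cluster 2 (0.38, 0.14 to 0.64) and at most 6.75 CPM elsewhere. A promoter region of Capzb at chr4:139199034-139200137 lay at 1.11 over all nuclei, at -1.71 without immune-open nuclei and at 0.09 within cluster 2.

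Several genes had promoter regions that differed from each other. A promoter region lies within 1 kb of any annotated start of its gene, so neighbouring regions at the same start were counted apart. Among the 28 genes with 2 or more promoter regions of at least 200 counts, 13 had regions whose ratios lay 1 log2 unit or more apart over all nuclei (46.4%, against 32.1% of 6960 genes), namely Actn1, Actn4, Capzb, Diaph1, Diaph2, Enah, Limk1, Myh10, Myl12b, Tln1, Tpm2, Vasp and Zyx. Without immune-open nuclei 4 did (Capzb, Diaph1, Enah and Limk1), or 14.3% against 18.6% of all. The highest and lowest region of a gene were compared, so the spread can grow with the number of regions. The shares over all genes were not matched for that number. At Limk1 the main promoter chr5:134688431-134689366 had a ratio of 0.05, and an internal start at chr5:134677761-134678689 had 1.99 (1.07 without immune-open nuclei). The internal one was at 23.1 CPM in DOX and 28.7 CPM in EtOH nuclei of cluster 2 (-0.31, -0.53 to -0.08) and at most 1.05 CPM in every other cluster, where the main one stood at 85.4 CPM or more. At Vasp the neighbouring internal regions chr7:19265750-19266811 and chr7:19266879-19267674, nearest to the same start, had 1.78 and 2.0. The latter was at 19.8 and 18.9 CPM in cluster 2 and at most 3.46 CPM elsewhere. The internal start of Tln1 at chr4:43555680-43556525 (1.93) was at 11.2 and 13.3 CPM in cluster 2 and at most 0.528 CPM elsewhere, and that of Zyx at chr6:42352918-42353827 (1.73) at 28.6 and 32.9 CPM against at most 3.43 CPM. A promoter region of Tln1 also overlaps Creb3 and one of Diaph1 overlaps Hdac3, so their counts may belong to those genes.

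The central 300 bp of 2 internal promoters are given, since these were among the 5 highest regions over all nuclei. The GATAA match of the Vasp window is in capitals, and the Limk1 window held none of the strings.
Limk1 internal promoter, chr5:134678075-134678374, plus strand: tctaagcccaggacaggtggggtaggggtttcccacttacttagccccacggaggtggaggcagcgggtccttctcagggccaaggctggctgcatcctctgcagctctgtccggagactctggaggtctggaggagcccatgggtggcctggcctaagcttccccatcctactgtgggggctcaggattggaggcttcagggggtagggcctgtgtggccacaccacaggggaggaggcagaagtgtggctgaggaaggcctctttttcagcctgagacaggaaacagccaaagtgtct
Vasp internal promoter, chr7:19267127-19267426, plus strand: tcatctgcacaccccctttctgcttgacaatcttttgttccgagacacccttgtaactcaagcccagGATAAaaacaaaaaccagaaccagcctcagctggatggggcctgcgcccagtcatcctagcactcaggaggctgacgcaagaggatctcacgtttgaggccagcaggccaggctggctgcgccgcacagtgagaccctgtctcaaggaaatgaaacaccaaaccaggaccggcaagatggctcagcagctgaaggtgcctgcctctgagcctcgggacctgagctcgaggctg

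In epithelial clusters other promoter regions differed. The promoter region of Actn4 at chr7:28919450-28920223 was at 29.6 CPM in DOX and 28.0 CPM in EtOH nuclei of basal-like cluster 6 and at most 10.3 CPM in the other clusters. The Capzb promoter region at chr4:139226402-139227321 was at 14.4 and 14.9 CPM in cluster 6 and at most 3.35 CPM elsewhere. The Tpm2 region chr4:43524049-43524682, which holds a CArG box, was at 9.52 and 12.9 CPM in cluster 6, and the Tln1 region chr4:43558354-43559353, which also holds one, at 22.3 and 19.3 CPM. These 4 regions had ratios of 0.14, 0.19, 0.07 and 0.05 without immune-open nuclei. Over the 29 regions with a CArG box the median log2 ratio of cluster 6 over the mean of clusters 1, 3, 4 and 5 was 0.15, and over the other 334 regions with at least 200 counts it was -0.12, while over all shared regions with and without the box it was -0.03 and -0.11. Regions near a TSS made up 48.3% of the 29 and 26.3% of the genes' regions without a box, so these sets differ in place. Of the 29, 2 were at least 2-fold higher in cluster 6 (6.90%), in Myh9 and Tpm2, and 1 was 2-fold lower, in Ezr (-1.45), while 9.88% of the 334 were higher. Over all shared regions 18.3% of those with a box and 14.1% of those without were 2-fold higher in cluster 6.

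**Figure D4:**
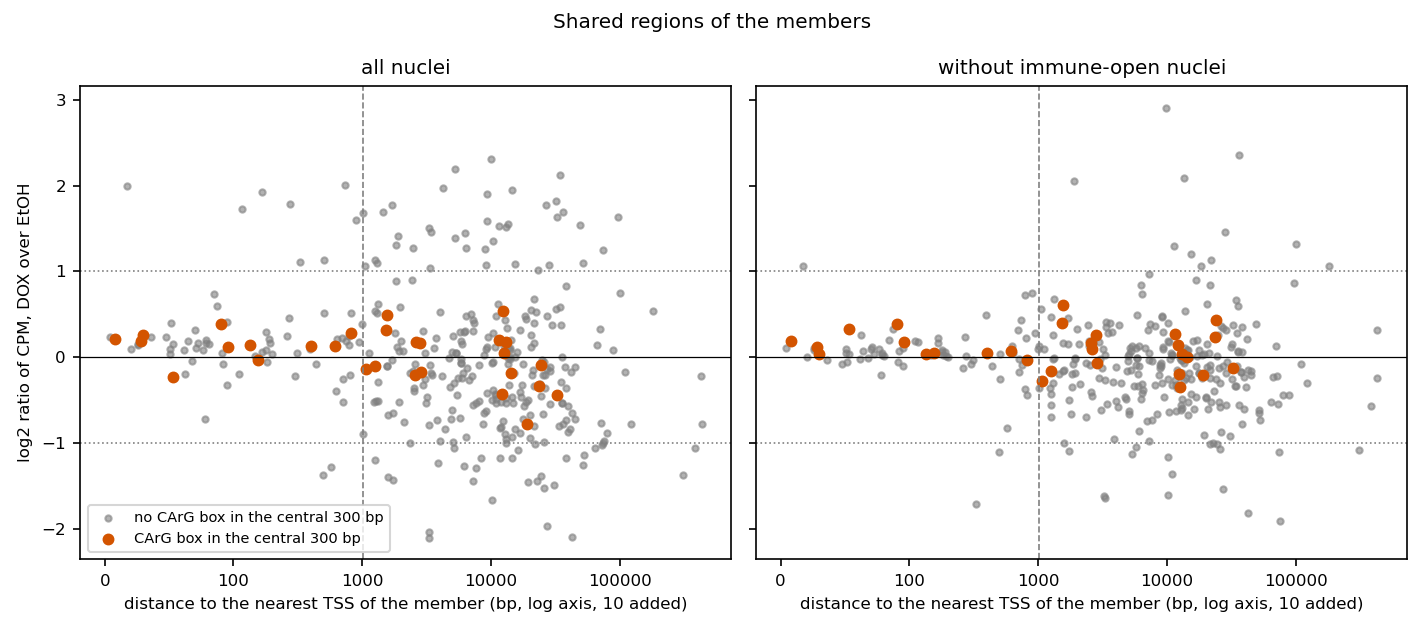
Log2 ratio of CPM in DOX over EtOH of each shared region of the genes against its distance to the nearest TSS of its gene (log axis), over all nuclei and without immune-open nuclei. Orange points hold a CArG box. The dashed line marks 1 kb and dotted lines 2-fold. The orange points lie within 1 log2 unit of 0 in both panels.

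Within immune-like cluster 2, 10 of 241 regions of the genes were at least 2-fold higher in DOX and 1 was lower, where 6.20% and 0.411% of all regions were. A region at the 3′ end of Myl6, which encodes an essential light chain of myosin, was at 19.0 CPM in DOX and 1.17 CPM in EtOH (4.03, 3.04 to 5.24), from 1566 and 16 counts. A count there was seen in 44.5% of 1270 DOX and 3.64% of 275 EtOH nuclei, and no nucleus held more than 8 counts. The region, chr10:128489247-128490908, has 49 of its 1662 bases inside Myl6 and overlaps Smarcc2. In cluster 6 it was at 20.1 and 20.5 CPM and in cluster 4 at 12.0 and 4.72 CPM. The Myl6 promoter was at 57.8 and 56.3 CPM in cluster 2. Of the 34 gene bodies 3 were at least 1.5-fold higher in DOX in cluster 2 (Myl6, Myl12a and Rdx) and 0 lower, where 9.69% and 1.31% of all gene bodies were. Smaller differences of single regions in cluster 2 were seen at the 3′ end of Myl12a (5.42 and 1.89 CPM, 1.52), in an exon of Tpm4 (5.87 and 1.75 CPM, 1.75) and in an intron of Rdx (1.77 and 0.0729 CPM, from 146 counts and 1 count). The Myl12a region, the only shared one of that gene body, has 506 of its 948 bases inside the gene and overlaps an annotated entry named Myl12b. These regions were singled out after their values were seen.

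A second list of 68 genes of the same pathway (written down with earlier results of these data known) was counted in the same way. Over all nuclei 1 promoter was at least 1.5-fold higher in DOX and 4 were lower, where 6.23% and 6.01% of all promoters were, and 9 gene bodies were higher and 6 lower of 57, where 14.3% and 16.5% of all were. The gene bodies included Arpc5, a subunit of the Arp2/3 complex (2.37), Lcp1, the plastin of blood cells (1.61), Cap1 (0.91), Actr3 (0.90), and Ssh3, a phosphatase that activates cofilin (-1.50). The promoter of Tln2 was at -1.03. Without immune-open nuclei 0 promoters were higher and 1 was lower (Arpc1b, -0.68), where 2.89% and 2.43% of all were. In that set 0 gene bodies were higher and 4 lower of 56, where 6.02% and 10.0% of all were, namely Ssh3 (-1.48), Capza1 (-1.08), Flnc (-0.74) and Itgb1 (-0.59). The medians of the 68 promoters were 0.04 and 0.02 in the respective sets of nuclei.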

How the data were processed

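Single-nucleus chromatin accessibility (10x ATAC) was analysed from 1 DOX and 1 EtOH library. Per the file headers, the authors deposited whole-number counts of cut sites per peak and nucleus made with cellranger-atac 2.0.0, a version that differs from the one in the methods, and the submitters' processing notes name mm10. Peaks were called in each library separately. A count is 1 end of a fragment, and both ends can fall in 1 peak.

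Peaks overlapping by at least 1 bp were merged, and regions with a peak in both libraries were kept (94.7% of DOX and 94.8% of EtOH counts). Regions were assigned to genes of GENCODE M21 as promoter (within 1 kb of a TSS) or gene body. Counts were summed over nuclei, and ratios were given with exact binomial intervals after halving the counts. All nuclei of the files were kept, no doublet caller was run, and totals were 224762118 (DOX) and 211963715 (EtOH) counts. Promoters and gene bodies were called at 1.5-fold, regions at 2-fold, each with at least 100 counts over both libraries. No test was run, since each group has 1 library. The ratio script was tested on simulated data.

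Immune-open nuclei lay above an Otsu cut of log2(rate per 10000 counts + 0.5) at Ptprc, Csf1r and C1qb. Clusters came from TF-IDF and LSI components 2 to 30, 15 neighbours and Leiden at resolution 0.5 (scikit-learn 1.9.0, leidenalg 0.10.2). Named regions were the 5 highest and 5 lowest with at least 200 counts in each set of nuclei, and promoter regions of a gene at least 1 log2 unit apart. The genes, lists and rules were chosen with earlier results of these data known. Alternatives were the scaling, the promoter window, each nucleus counted once per region, depth limits on nuclei and other definitions of immune-open nuclei. Comparisons within clusters were added after seeing the data. The labels give both groups the shTrps1 genotype, while a legend of the study names wild-type mice, in which case the groups would differ in doxycycline alone.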

Additional observations from a re-analysis of the deposited data

Results flagged for a closer look

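A region in an exon of Tpm4, chr8:72145617-72146722, stood on opposite sides of 0 in different nuclei. Its log2 ratio of DOX over EtOH was -1.36 without immune-open nuclei and 1.75 within immune-like cluster 2. The difference between the 2 values was not tested. Tpm4 encodes a cytoplasmic tropomyosin. In cluster 2 the region was at 5.87 CPM in DOX and 1.75 CPM in EtOH, from 484 and 24 counts, and in basal-like cluster 6 at 2.77 and 10.2 CPM, from 16 and 95 counts.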

How the results depend on the processing

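No paired analysis was possible because only 1 library was made for either group. Over all nuclei, the median promoter ratio of 0.13 was 0.26 with the median region ratio set to 0 and 0.054 with scaling to counts near TSSs, and the 3 promoters at 1.5-fold became 1 with the latter and 1 with each nucleus counted once. The median gene-body ratio of 0.04 was 0.17 with the median ratio set to 0, 0.13 with each nucleus counted once and -0.19 with a 2-kb promoter window. Without immune-open nuclei, the 0 gene bodies at 1.5-fold became 1 with each nucleus counted once, 4 with the 2-kb window, 2 with a count in any of the 3 immune genes as the definition, 1 with a count at 1 of the 3 promoters and 1 with counts at 2 of the 3. The 12 higher regions became 20 under that last definition, and the 19 lower regions became 8 with each nucleus counted once. The causes were not tested. Each nucleus counted once put Vasp at 0.46 and Pfn1 at 0.42 (promoters) and Tpm2 at -0.55 (gene body). Among single genes, 670 of 870 values moved by less than their counting interval and 0 called values changed sign. Signs of values below the threshold changed in 70 of the 870, among them 20 under the 2-kb and 500-bp windows and 15 of the 39 promoters without immune-open nuclei with each nucleus counted once. Of the changes under these windows, those of Enah, Rock1, Rock2 and Myl12b began from a ratio of at least 0.2 in size.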

Other observations

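Regions with a peak in 1 library were left out of the comparisons. At the genes described, the region with the most counts in DOX alone was chr3:90080113-90080856 at Tpm3, with 3380 counts, and in EtOH alone chr15:77804696-77805481 at Myh9, with 1981 counts. The Tpm3 region lies close to a RefSeq promoter of that gene, chr3:90079271-90079570, and its counts are not in the promoter or gene-body sums of Tpm3. The median was 230 counts for the 77 DOX regions and 181 counts for the 99 EtOH regions.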
